A study of Mus musculus with 24 samples.

Results

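Nkx2-1, Foxa1, Foxa2, Gata6, Cebpa, Etv5, Klf5 and Grhl2 encode transcription factors that the alveolar epithelium of the lung depends on. These 8 genes were taken by symbol from 24970 unique gene symbols (24972 listed), and each was found once in all 4 expression tables of the series. All 8 passed the filter on low values in every table. They were followed in mice with the let-7 microRNA genes Mirlet7a-1, Mirlet7f-1 and Mirlet7d deleted in alveolar type 2 (AT2) cells. AT2 cells are the surfactant-making cells of the alveolus. Control mice had the genotype Sftpc-CreER/+; R26-tdT/+, and knockout mice let7afd-/-;Sftpc-CreER/+; R26-tdT/+. In both, Cre recombinase was driven from the Sftpc gene, R26-tdT is a tdTomato reporter, and all mice received tamoxifen, so the controls share every element but the deletion. No age of the mice is given in the labels. Sorted AT2 cells were collected 6 days after tamoxifen as pools of 3 mice (3 libraries per genotype). Whole lungs came from 3 mice of each genotype at 6 days and from 4 of each at 6 months, the latter with booster tamoxifen. Organoids grown from AT2 cells in AMM medium for 14 days came from 2 mice of each genotype.

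NKX2-1 is a homeodomain factor that specifies the lung lineage and, with CEBPA and GATA6, drives the surfactant genes of AT2 cells. FOXA1 and FOXA2 are paralogous forkhead factors that open chromatin at many of the same epithelial enhancers. ETV5 is an ETS factor induced by fibroblast growth factor (FGF) signalling through ERK and helps maintain AT2 cells, while KLF5 and GRHL2 act more broadly in epithelia, GRHL2 on genes of cell junctions. Let-7 microRNAs pair through their seed with matching sites in 3′ untranslated regions and lower those transcripts.

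The mature microRNAs encoded by the 3 deleted genes are shown first, because let-7 recognises transcripts mainly through matches to its seed. Sequences are from RefSeq (GRCm38.p6), written 5′ to 3′, with the seed (bases 2 to 8) in capitals, and the 3 share 1 seed.
mmu-let-7a-5p (chr13:48538239-48538260, minus strand): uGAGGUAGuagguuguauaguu
mmu-let-7f-5p (chr13:48537889-48537910, minus strand): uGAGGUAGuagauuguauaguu
mmu-let-7d-5p (chr13:48536078-48536099, minus strand): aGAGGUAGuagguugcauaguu
Their perfect match on a transcript is CTACCTCA (8mer), and the shorter matches CTACCTC and TACCTCA (7mers) lie within it. In the longest annotated 3′ UTR of each gene (GENCODE M21, GRCm38), 0 of the 8 transcription factor genes held an 8mer or a 7mer, against 3.11% of 20657 genes with an 8mer and 15.1% with a 7mer. The 6-letter core TACCTC, present in 23.8% of genes, occurred once in Etv5 and 2 times in Grhl2 and in none of the other 6. The 3′ UTRs searched ran from 637 bases (Foxa2) to 2718 bases (Grhl2), and the median over all genes was 989 bases. No match says only that these letters are not in the windows searched.

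Promoters are shown for the 3 genes that passed the test in at least 1 comparison, Foxa1, Cebpa and Etv5 (first listed start). Each run covers 250 bases before to 50 after the annotated start, from the RefSeq table of GRCm38.p6, and capitals mark the forkhead core TGTTTAC on either strand.
Foxa1 (chr12:57546062-57546361, minus strand): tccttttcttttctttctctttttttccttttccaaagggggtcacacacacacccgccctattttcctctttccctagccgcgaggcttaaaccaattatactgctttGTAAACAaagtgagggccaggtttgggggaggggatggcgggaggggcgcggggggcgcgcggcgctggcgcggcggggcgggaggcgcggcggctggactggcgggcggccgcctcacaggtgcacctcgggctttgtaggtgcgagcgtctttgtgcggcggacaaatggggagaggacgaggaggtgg
Cebpa (chr7:35119043-35119342, plus strand): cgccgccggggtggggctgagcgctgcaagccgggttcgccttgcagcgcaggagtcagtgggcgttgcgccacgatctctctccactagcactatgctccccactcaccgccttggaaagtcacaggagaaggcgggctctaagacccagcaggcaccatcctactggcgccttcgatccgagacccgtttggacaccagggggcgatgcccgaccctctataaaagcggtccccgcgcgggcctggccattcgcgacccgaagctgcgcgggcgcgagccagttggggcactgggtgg
Etv5 (chr16:22439521-22439820, minus strand): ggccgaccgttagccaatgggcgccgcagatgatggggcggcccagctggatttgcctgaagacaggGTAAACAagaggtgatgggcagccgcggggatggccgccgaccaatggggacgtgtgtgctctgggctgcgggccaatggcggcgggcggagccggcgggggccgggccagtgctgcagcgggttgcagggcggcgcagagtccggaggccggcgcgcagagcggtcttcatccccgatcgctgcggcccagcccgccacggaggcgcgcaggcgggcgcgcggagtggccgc
The forkhead core occurred once in the Foxa1 window and once at this Etv5 start, and 3.65% of 32851 promoters in the table held it. The whole Foxa1 window lies inside the span of the gene in GENCODE M21 (chr12:57540628-57546916), whose outermost start is further upstream. It was absent from the windows of Nkx2-1, Cebpa, the 3 starts of Foxa2 and the other start of Etv5. Of 11 motifs searched, this is the motif chosen for display after the matches were seen. The other 10 were a variant of the forkhead core (TGTTTGC), a core bound by NKX2 homeodomain factors (CACTTGA), the C/EBP palindrome (TTGCGCAA) and its looser form (TTGCNNNA), and the grainyhead core (AACNGGTT). The search also covered the core of ETS factors (CCGGAAG) and, among general promoter elements, the GC box, which reads GGGCGG. The CCAAT box, the TATA box with the letters TATAAA, and the sequence AGATAA recognised by GATA factors completed the set. No matches overlapped in the 8 windows of the table. The GC box (35.7% of promoters) occurred 3 times in the Foxa1 window and 3 times in that of Etv5, and was absent from that of Cebpa. The GC content was 62.3% for Foxa1, 67.3% for Cebpa and 74.0% for Etv5, above the median of 52.7% over all promoters. A match is a description of letters and not a bound site.

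On GRCm38 (GENCODE M21), 7 of the 8 genes lie at chr12:56531958-56536908 (Nkx2-1, minus strand), chr12:57540628-57546916 (Foxa1, minus), chr2:148042877-148046969 (Foxa2, minus), chr7:35119293-35121928 (Cebpa, plus), chr16:22381309-22439719 (Etv5, minus), chr14:99298691-99315036 (Klf5, plus) and chr15:37233036-37363569 (Grhl2, plus). The position of Gata6 is not given here. The libraries did not keep the strand. An annotated gene on the opposite strand overlaps Nkx2-1 (1 gene), Gata6 (1), Cebpa (1) and Grhl2 (3), and reads of such pairs cannot be told apart. Foxa1, Foxa2, Etv5 and Klf5 have no such partner in this annotation.

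Values are TPM, transcripts scaled to 1 fixed sum per library and to transcript length, so levels of different genes can be set beside each other, while the read depth of each library is unknown. Between 11814 and 14175 genes per library reached 1 TPM. The 3 deleted microRNA genes (Mirlet7a-1, Mirlet7f-1, Mirlet7d) had 0 TPM throughout, which checks no label, since poly(A) selection misses mature microRNA. AT2 identity was present in the sorted cells, where 11 AT2 markers summed to 203992 to 218194 TPM in controls and 132201 to 191268 TPM in knockouts. These sums did not overlap, and by limma 0 of the 11 passed and 0 had an unadjusted p under 0.05. Knockout 3 among the lungs at 6 days stood apart: haemoglobin transcripts took 12.6% of its TPM, against 1.40% to 6.54% in the other 5, and all 8 factors were lower in it than the mean of the other knockouts (median −0.55 on the log2 scale, against −0.41 over all genes). Organoid control 2 also stood apart, with a correlation of 0.959 to the other control and 0.893 to 0.899 to the knockouts, while the knockouts correlated at 0.994.

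In control AT2 cells, Etv5 (502 ± 33.2 TPM, SD, n = 3) and Cebpa (501 ± 29.6 TPM) were the most abundant of the 8 and could not be ordered within their spread. Nkx2-1 followed at 253 ± 3.87 TPM, apart from every other factor. Klf5 (77.1 ± 16.6 TPM), Foxa2 (73.1 ± 5.31 TPM), Foxa1 (72.3 ± 7.55 TPM) and Gata6 (64.7 ± 4.74 TPM) formed a band whose libraries overlapped, and Grhl2 was lowest at 29.1 ± 3.27 TPM. The tables were normalized separately, so levels set across them are descriptions without a test. Control AT2 cells held more of each factor than control lungs at 6 days, from 2.13 times (Foxa2) and 2.33 times (Foxa1) to 4.95 times (Cebpa) and 6.28 times (Etv5). Control organoids held less Etv5 (0.289 times), Cebpa (0.389 times), Gata6 (0.454 times) and Nkx2-1 (0.456 times) than control AT2 cells, and more Klf5 (1.27 times) and Foxa1 (1.66 times).

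**Figure D1:**
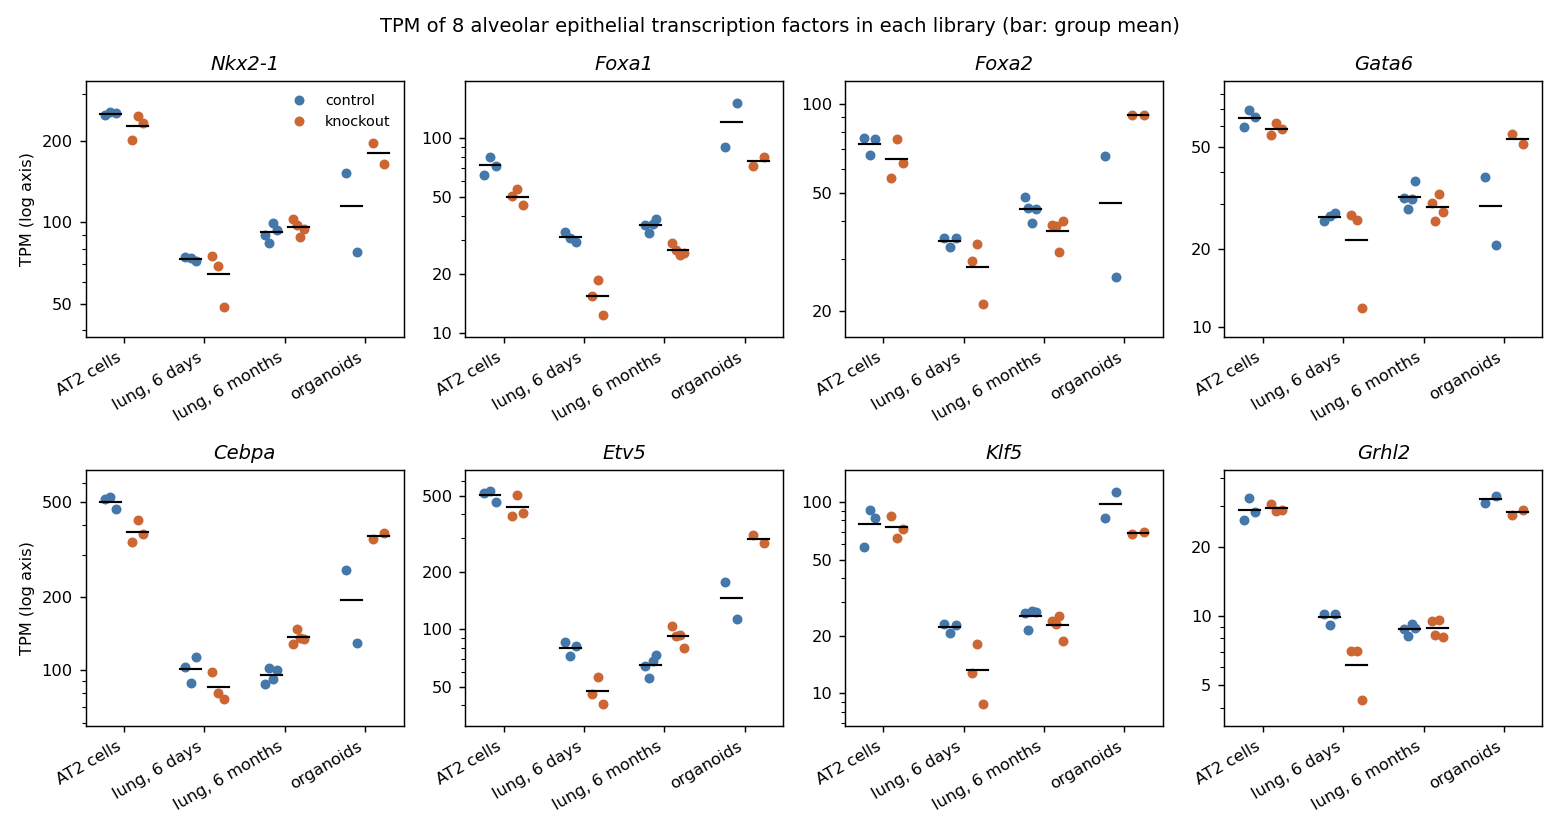
TPM (log axis) of the 8 factors in each of the 24 libraries, by kind of sample and genotype; points are libraries and bars are group means. Foxa1 in knockouts lies below every control in all 4 kinds of sample, while Cebpa and Etv5 in knockout lungs lie above every control at 6 months.

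Few of the 8 genes passed the test, and Foxa1 was the one that passed in more than 2 of the 4 comparisons. Fold changes are differences of log2(TPM + 1), knockout against control, with their standard errors, and a gene passed at a limma adjusted p under 0.05. In AT2 cells 1 factor was lower (Foxa1) and 0 were higher, where 1.22% of 12109 genes tested were called lower and 6.62% higher. In lungs at 6 days 2 were lower (Foxa1 and Etv5) and 0 higher, against 3.79% and 3.16% of 14154 genes. In lungs at 6 months 2 were higher (Cebpa and Etv5) and 1 lower (Foxa1), against 15.9% and 13.9% of 14177 genes. In organoids limma called 0 of the 8, against 0.218% of 12406 genes called higher and 0.387% called lower, and 3 factors (Gata6, Cebpa and Etv5) had an unadjusted p under 0.05. The calls over all genes were 84.4% higher in AT2 cells (66.4% after median-ratio scaling, 65% after quantile normalization, 64.4% on a scale set by the mean of 9 epithelial markers, an alternative added after the data were seen). On that epithelial scale the share of calls that were higher was 18.5% in place of 45.5% in lungs at 6 days, 72.6% in place of 53.5% at 6 months (42.6% after quantile normalization) and 14.3% in place of 36% in organoids (46.4% after quantile normalization). Replicates of lungs and organoids are separate mice and those of AT2 cells are pools, so the p-values measure the spread between these samples. The median fold change of the 8 factors was −0.17 in AT2 cells (0.08 over all genes tested), −0.50 in lungs at 6 days (−0.14), −0.06 at 6 months (−0.00) and 0.81 in organoids (0.06). Without knockout 3 the median at 6 days was −0.31 (0.01 over all genes), and without control 2 that in organoids was 0.34 (0.03).

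**Figure D2:**
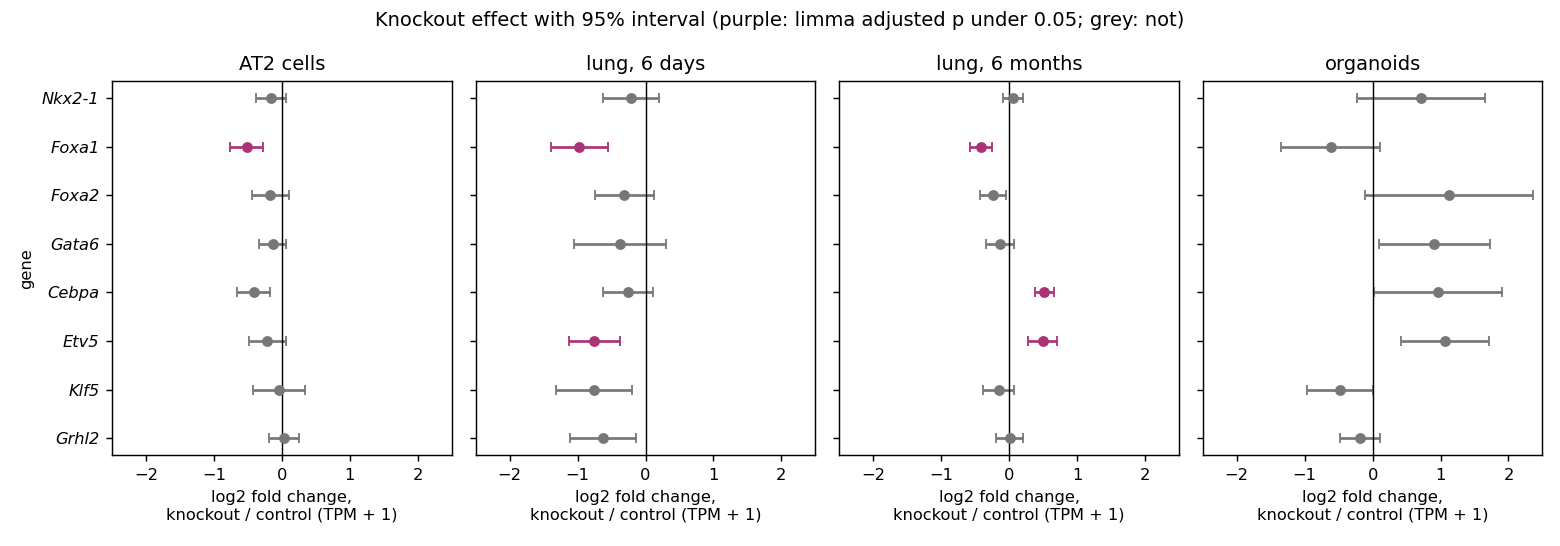
Log2 fold change (TPM + 1, knockout against control) of each factor in the 4 comparisons, with 95% intervals from limma; purple points passed an adjusted p of 0.05 and grey points did not. Foxa1 is purple at −0.52 in AT2 cells, −0.98 in lungs at 6 days and −0.42 at 6 months, and the organoid intervals are the widest.

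Foxa1 fell in sorted AT2 cells and in whole lungs at both times, and its paralog Foxa2 did not pass in any comparison. In AT2 cells, Foxa1 was at 64.9, 80.0 and 72.1 TPM in controls and 50.4, 54.5 and 45.1 TPM in knockouts. Every knockout pool lay below every control pool, and the change was −0.52 ± 0.10 (adjusted p 0.0289). No overlap with all knockouts lower was seen in 3 of the 8 factors (Nkx2-1, Foxa1 and Cebpa) and in 8.31% of all genes tested. The Foxa1 call ended without the filter on low values (adjusted p 0.0566), and without control 2 (0.110), control 3 (0.0833), knockout 1 (0.0564) or knockout 3 (0.0938), with values of −0.53 to −0.45.

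Foxa1 in lungs at 6 days was at 33.1, 30.8 and 29.3 TPM in controls and at 15.4, 18.6 and 12.4 TPM in knockouts. The groups were far apart relative to their spread, and the change was −0.98 ± 0.18 (adjusted p 0.0208). Without knockout 3, the library rich in haemoglobin, Foxa1 was −0.84 (adjusted p 0.00929). Without control 1, 2 or 3 it lay between −1.02 and −0.93 and no longer passed (adjusted p 0.132, 0.0674 and 0.1001). In bulk lung, fewer cells of a type and less RNA per cell cannot be told apart. At 6 months, Foxa1 was at 35.7, 32.5, 36.4 and 38.5 TPM in controls and 28.8, 26.7, 25.02 and 25.7 TPM in knockouts. All 4 knockouts lay below all 4 controls, the change was −0.42 ± 0.07 (adjusted p 0.00125), and the call held in all 16 alternatives run.

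In organoids, Foxa1 was at 89.98 and 150.4 TPM in controls and 71.8 and 79.8 TPM in knockouts. The values did not overlap, as in 71.7% of all genes tested there, and Foxa1 did not pass (−0.61 ± 0.27, adjusted p 0.177). Leaving out control 2 gave −0.25 (0.159) and leaving out control 1 gave −0.98 (0.00421), where the lone control is assumed to vary like the knockouts.

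Foxa2 in AT2 cells was at 76.3, 67.0 and 76.1 TPM in controls and 56.1, 76.1 and 63.2 TPM in knockouts, which overlap (−0.17 ± 0.12, adjusted p 0.384). At 6 days in lung it was at 35.1, 32.7 and 35.2 TPM against 29.4, 33.5 and 21.1 TPM (−0.31 ± 0.19, adjusted p 0.337; −0.13, adjusted p 0.429, without knockout 3). At 6 months it was at 48.2, 44.3, 39.6 and 44.0 TPM against 38.9, 38.6, 31.5 and 40.0 TPM. The highest knockout overlapped the lowest control at 6 months (−0.24 ± 0.09, adjusted p 0.0634), and Foxa2 passed without control 3 (−0.29, adjusted p 0.0422). In organoids the controls were far apart, at 66.4 and 25.9 TPM, and both knockouts were near 92 TPM, at 91.6 and 91.5 TPM (1.12 ± 0.46, adjusted p 0.157).

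The balance of the paralogs within a library was examined after these values were seen, in a family of 16 exact two-sided permutation tests (4 ratios in 4 kinds of sample). The ratio of Foxa1 to Foxa2 in lungs at 6 days was 0.905 ± 0.0639 in controls and 0.556 ± 0.0301 in knockouts (SD, n = 3 each). The groups did not overlap, and the exact permutation p was 0.1, the smallest that 3 against 3 allows. In AT2 cells the ratio was 0.997 ± 0.177 in controls and 0.776 ± 0.106 in knockouts with overlap (exact p 0.2), and at 6 months 0.817 ± 0.0938 and 0.717 ± 0.0656 with overlap (exact p 0.171). In organoids it was 1.36 and 5.81 in the 2 controls and 0.784 and 0.872 in the knockouts (exact p 0.333, the smallest possible). The smallest p of the family adjusted by Benjamini-Hochberg was 0.152, so no ratio passed the correction.

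Foxa1 was also set against epithelial genes, because the lungs hold many cell types. Epcam, an epithelial adhesion gene, passed in none of the 4 comparisons (adjusted p 0.127 to 0.877). The ratio of Foxa1 to Epcam was 0.406 in control and 0.277 in knockout AT2 cells, 0.485 and 0.268 at 6 days in lung, and 0.563 and 0.445 at 6 months. In these 3 kinds of sample the ratio was lower in every knockout library (exact permutation p 0.1, 0.1 and 0.0286). After adjustment over the 16 tests these were 0.2, 0.2 and 0.152. Foxa1 alone was also lower in every knockout library there, so the ratio largely repeats that separation. In organoids the ratio was higher in the knockouts without overlap, at 0.230 in controls and 0.267 in knockouts (exact permutation p 0.333, the smallest possible). When every library was rescaled to the mean of the 9 epithelial markers, Foxa1 was −0.65 in AT2 cells (adjusted p 0.0237), −1.11 at 6 days (0.00376) and −0.31 at 6 months (0.00478). At 6 days 3 of these 9 markers had positive and 6 negative values (median −0.155), with Krt8 at 0.67 and Epcam at −0.155. The mean of the 9 was higher in the knockouts there, unlike Epcam. That rescaling moved the median of all genes by −0.118 in AT2 cells, −0.125 at 6 days, 0.1 at 6 months and −0.149 in organoids. Median-ratio scaling and quantile normalization moved it by 0.137 and 0.116 at 6 days.

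**Figure D3:**
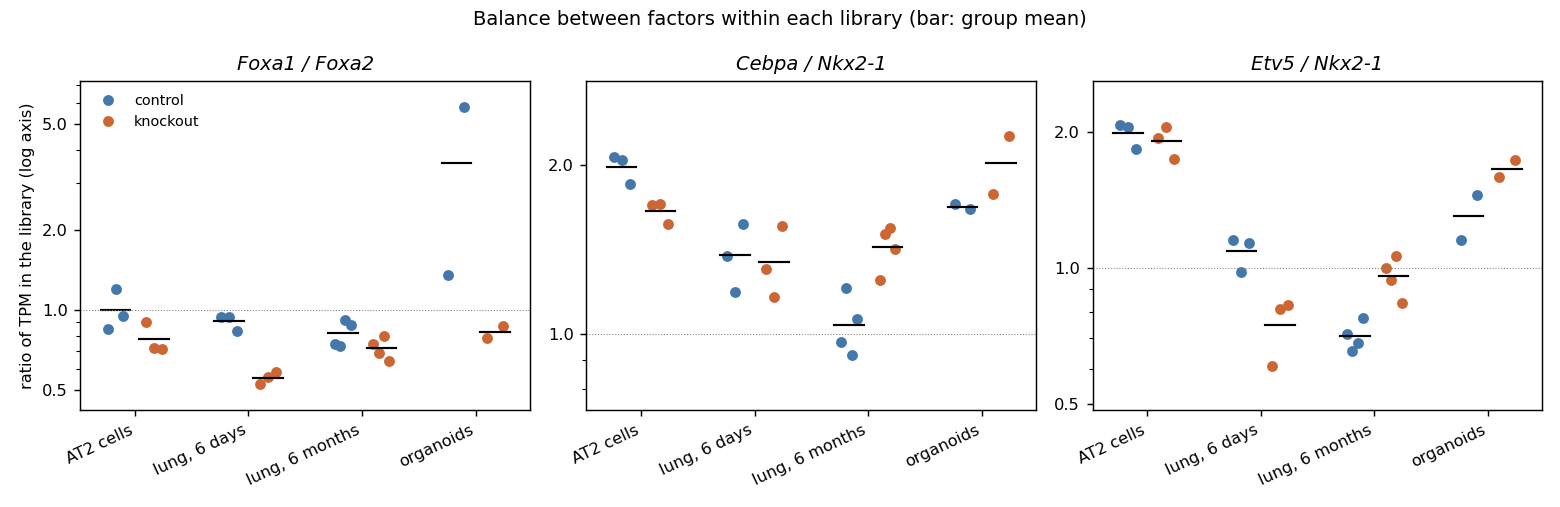
Ratio of TPM (log axis) of Foxa1 to Foxa2, Cebpa to Nkx2-1 and Etv5 to Nkx2-1 within each library; points are libraries and bars are group means. Foxa1 to Foxa2 separates the genotypes in lungs at 6 days (0.905 and 0.556), and both other ratios separate them in lungs at 6 months.

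Among the surfactant regulators, Cebpa rose in lungs at 6 months, and Nkx2-1 and Gata6 passed in no comparison. In AT2 cells, Cebpa was at 513, 523 and 467 TPM in controls and 341, 420.4 and 366 TPM in knockouts. The pools did not overlap, but the change of −0.42 ± 0.11 missed the threshold (adjusted p 0.0512). It passed with the filter at 5 TPM (adjusted p 0.0490), after median-ratio scaling (0.0427) and without knockout 2 (0.0332). Cebpa at 6 days in lung was at 102, 88.1 and 113 TPM against 98.1, 80.3 and 75.9 TPM, which overlap (−0.25 ± 0.16, adjusted p 0.349; −0.18 without knockout 3).

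Cebpa in lungs at 6 months was at 87.1, 102, 91.5 and 99.9 TPM in controls and 128, 148, 136 and 134 TPM in knockouts. Every knockout exceeded every control, and Cebpa rose by 0.52 ± 0.07 (1.44 times, adjusted p 0.00012), a call kept in all 16 alternatives run. Cebpa and Etv5, 2 of the 8 factors, had all knockouts above all controls there, against 16.4% of all genes, and Foxa1 had all below, against 14.2%. In organoids Cebpa was at 260.3 and 129.8 TPM in controls and 349 and 369.7 TPM in knockouts, a change of 0.96 ± 0.35 that did not pass (adjusted p 0.134).

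Nkx2-1 in AT2 cells was at 249, 257 and 253 TPM in controls and 201, 247 and 234 TPM in knockouts. All knockout pools were below all control pools, while the change of −0.16 ± 0.09 did not pass (adjusted p 0.307). In lungs it was −0.21 ± 0.18 at 6 days (adjusted p 0.474; −0.03, adjusted p 0.852, without knockout 3) and 0.06 ± 0.07 at 6 months (adjusted p 0.551), with overlap at both times. In organoids Nkx2-1 was at 153 and 77.9 TPM against 197 and 164 TPM (0.71 ± 0.35, adjusted p 0.209; 0.23 without control 2 and 1.196, adjusted p 0.00465, without control 1). The 95% interval at 6 months, −0.09 to 0.21, was the narrowest for this gene.

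Gata6, a zinc finger factor of lung epithelium and mesenchyme, was at 59.7, 69.1 and 65.4 TPM in control and 55.4, 61.8 and 58.8 TPM in knockout AT2 cells (−0.14 ± 0.08, adjusted p 0.326). Of the lungs at 6 days, 2 knockouts (27.1 and 26.0 TPM) lay within the controls (25.7 to 27.7 TPM), and knockout 3 was at 11.9 TPM. The change was −0.37 ± 0.29 with that library and −0.01 without it, and passed neither way (adjusted p 0.439 and 0.963). At 6 months it was −0.13 ± 0.09 (adjusted p 0.336). In organoids it was at 38.0 and 20.8 TPM against 56.2 and 51.3 TPM (0.91 ± 0.30, adjusted p 0.117).

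The ratio of Cebpa to Nkx2-1 at 6 months was 1.04 ± 0.127 in controls and 1.43 ± 0.133 in knockouts (SD, n = 4 each), and that of Etv5 to Nkx2-1 0.708 ± 0.0515 and 0.960 ± 0.0963. Neither pair of groups overlapped, and both exact permutation p-values were 0.0286, the smallest that 4 against 4 allows, and 0.152 after adjustment over the 16 tests. In AT2 cells the ratio of Cebpa to Nkx2-1 was lower in every knockout pool (1.98 ± 0.118 and 1.66 ± 0.0767, exact p 0.1). The direction in AT2 cells was thus the opposite of that in lungs at 6 months, a difference that was not tested. The ratio of Etv5 to Nkx2-1 was 1.09 ± 0.0958 in controls and 0.749 ± 0.122 in knockouts at 6 days, without overlap and also opposite to 6 months (exact p 0.1, 0.2 after adjustment over the 16 tests).

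Over all genes in lungs, 3.16% were called higher and 3.79% lower at 6 days, and 15.9% and 13.9% at 6 months. Of 14 reported targets of NKX2-1 and CEBPA, chiefly surfactant genes, 9 were higher, 2 lower and 3 did not pass at 6 months. Their median there was 0.51 (−0.00 over all genes). Among them Sftpd, the surfactant protein D gene (1.03 ± 0.06), the lysosomal protease gene Ctsh (0.80 ± 0.05) and Lamp3, a gene of lamellar body membranes (0.75 ± 0.06), rose. Scgb3a2, a secretoglobin gene of club cells, fell (−1.13 ± 0.09). In lungs at 6 days 1 of 14 was higher (Sftpd, 0.59 ± 0.11) and 3 were lower, with a median of −0.21 (−0.14 over all genes). Those 3 were Sftpc (−1.49 ± 0.14), which encodes surfactant protein C, and the club cell genes Scgb1a1 (−1.03 ± 0.13) and Scgb3a2 (−1.60 ± 0.28). Of 14 alternatives at 6 days, the call was lost in 7 for Sftpd, 1 for Sftpc, 6 for Scgb1a1 and 4 for Scgb3a2. In AT2 cells 1 was higher, the membrane mucin Muc1 (0.47 ± 0.11, adjusted p 0.0471, a call lost in 10 of 14 alternatives), and 0 lower, with a median of −0.13 (0.08 over all genes). Sftpc did not pass in AT2 cells (−0.46 ± 0.72), in lungs at 6 months (0.18 ± 0.08) or in organoids (1.98 ± 0.72). In organoids 0 of the 14 passed by limma, 4 had an unadjusted p under 0.05, and the median was 0.93 (0.06 over all genes).

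Markers of the cell types moved with the lung and organoid results, and their part in them was not tested. The shares called over all genes in lungs were 15.9% higher and 13.9% lower at 6 months, and 3.16% and 3.79% at 6 days. They were 6.62% higher and 1.22% lower in AT2 cells, and 0.218% and 0.387% in organoids. At 6 months 7 of 11 AT2 markers, a list that includes Etv5, were higher and 0 lower, and their sum was 26258 to 27600 TPM in controls and 30239 to 36030 TPM in knockouts. Club cell (5 of 6), ciliated cell (5 of 6) and endothelial (6 of 7) markers were lower, while 7 of 11 alveolar macrophage markers were higher and 2 lower, with sums of 807 to 1080 TPM in controls and 4969 to 8432 TPM in knockouts. At 6 days 5 of 6 club cell and 3 of 6 ciliated cell markers were lower, 2 of 11 AT2 markers were lower and 1 higher (sums of 41328 to 47350 TPM in controls and 22922 to 24586 TPM in knockouts), and macrophage marker sums were 1776 to 1832 TPM in controls and 4020 to 13288 TPM in knockouts (4 of 11 higher, 2 lower). The 9 epithelial markers had 1 higher and 0 lower at 6 days (934 to 1163 TPM and 1197 to 1859 TPM), and 0 higher and 1 lower at 6 months (1175 to 1275 TPM and 1095 to 1139 TPM). In AT2 cells 5 of 8 tested macrophage markers were higher, at low sums of 68.5 to 104 TPM in controls and 195 to 318 TPM in knockouts. In organoids basal cell markers were lower (3 of 5), with sums of 973 to 1981 TPM in controls and 79.7 to 82.4 TPM in knockouts. AT2 markers in organoids summed to 14945 to 49532 TPM in controls and 76046 to 83620 TPM in knockouts, with 0 of 11 past limma's threshold and 2 at an unadjusted p under 0.05. Fibroblast markers were lower for 2 of 7 at 6 days, and at 6 months for 3 of 7, with 1 higher.

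Markers of alveolar type 1 cells, the thin cells of gas exchange that AT2 cells give rise to, were lower for 5 of 11 and higher for 1 at 6 months, with sums of 7811 to 8942 TPM in controls and 6244 to 6811 TPM in knockouts. In AT2 cells 2 of 11 were lower and 1 higher, at 6 days 0 lower and 1 higher, and in organoids 0 lower and 1 higher. The shares called over all genes were 13.9% lower and 15.9% higher at 6 months, and 1.22% and 6.62% in AT2 cells. They were 3.79% and 3.16% at 6 days, and 0.387% and 0.218% in organoids. Hopx, a homeobox gene of type 1 cells, fell at 6 months (−0.74 ± 0.09, adjusted p 8.28e-05) and in AT2 cells (−0.68 ± 0.17, adjusted p 0.0472), the latter a call lost in 7 of 14 alternatives. It did not pass at 6 days (−0.08 ± 0.15) or in organoids (0.83 ± 0.24). Krt8, a keratin gene, passed in none of the 4 comparisons (adjusted p 0.0688 to 0.970), with its largest value at 6 days (0.67 ± 0.18). It passed in 4 of 14 alternatives at 6 days, and in 1 of 16 at 6 months with a negative value. No listed marker gene was at 0 in every library of the AT2 and lung tables. In organoids the leukocyte genes Cd3e, Ms4a1 and Nkg7, the endothelial genes Cldn5 and Emcn, the fibroblast gene Tcf21 and the globin genes Hba-a2, Hbb-bs and Hbb-bt were at 0.

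Etv5 moved in opposite directions in lungs at the earlier and the later time. At 6 days it was at 85.8, 72.4 and 81.5 TPM in controls and 45.7, 55.9 and 40.5 TPM in knockouts. All knockouts were below all controls, and Etv5 fell by 0.75 (SE 0.16, adjusted p 0.0339). Without knockout 3 it was −0.65 (adjusted p 0.0189). The call ended without control 1 (0.187), control 2 (0.0683), control 3 (0.173) or knockout 2 (0.0536), with values from −0.88 to −0.70. At 6 months it was at 64.3, 55.2, 68.3 and 72.9 TPM in controls and 103, 92.3, 93.5 and 79.3 TPM in knockouts. All knockouts were above all controls, and Etv5 rose by 0.49 ± 0.10 (1.41 times, adjusted p 0.00249), a call kept in all 16 alternatives run.

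In AT2 cells Etv5 was at 516, 526 and 464 TPM in controls and 391, 505 and 406 TPM in knockouts. Knockout 2 lay inside the range of the controls, and the change of −0.22 ± 0.12 did not pass (adjusted p 0.277). In organoids Etv5 was at 177 and 113 TPM in controls and 312 and 284 TPM in knockouts (1.07 ± 0.24, adjusted p 0.0746). It passed without control 2 (0.75, adjusted p 0.0152) and without control 1 (1.39, adjusted p 0.00188), each with a lone control.

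Etv5 stands downstream of FGF receptors, so a list of that pathway's feedback genes, together with the receptor gene Fgfr2, was read beside it. By limma, 0 of 12 tested passed in AT2 cells (median 0.00, 1 with an unadjusted p under 0.05) and 0 of 14 in organoids (median 0.08, 4 with an unadjusted p under 0.05). Over all genes in lungs, 3.79% were called lower and 3.16% higher at 6 days, and 15.9% higher and 13.9% lower at 6 months. Of this list, 1 of 14 was lower and 0 higher at 6 days (median −0.39). At 6 months 1 of 13 was higher and 2 were lower (median −0.16). Fgfr2, the FGF receptor gene of alveolar epithelium, was the one lower at 6 days (−0.88 ± 0.22, adjusted p 0.0488) and the one higher at 6 months (0.40 ± 0.08, adjusted p 0.00391). Apart from this receptor gene, no gene of the list was called at 6 days, and those called at 6 months were lower. The 6-day call of Fgfr2 was lost in 9 of 14 alternatives (adjusted p up to 0.218), and its 6-month call in 0 of 16. The signalling inhibitors Il17rd (−0.54 ± 0.10) and Spred2 (−0.34 ± 0.08, lost in 1 of 16 alternatives) were lower at 6 months.

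Klf5 and Grhl2 passed in no comparison. Klf5, a zinc finger factor of epithelial growth and differentiation, was at 58.4, 90.4 and 82.4 TPM in control and 84.7, 65.1 and 72.0 TPM in knockout AT2 cells (−0.04 ± 0.17, adjusted p 0.893). At 6 days in lung it was at 23.1, 20.8 and 22.8 TPM against 12.8, 18.1 and 8.78 TPM. Although these groups did not overlap, the knockouts were widely spread and the change of −0.76 ± 0.25 did not pass (adjusted p 0.104; −0.51, adjusted p 0.0656, without knockout 3). At 6 months it was −0.15 ± 0.10 (adjusted p 0.320), with control 2 (21.5 TPM) below the other controls (26.3 to 26.8 TPM). In organoids it was at 82.8 and 113 TPM against 68.1 and 69.9 TPM (−0.48 ± 0.18, adjusted p 0.137; −0.26 without control 2 and −0.71, adjusted p 0.00573, without control 1).

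Grhl2 was nearly level in AT2 cells, at 26.2, 32.6 and 28.4 TPM in controls and 30.7, 28.7 and 29.0 TPM in knockouts (0.02 ± 0.10, 95% interval −0.20 to 0.24). At 6 days in lung it was at 10.2, 9.11 and 10.3 TPM against 7.04, 7.05 and 4.33 TPM. The groups did not overlap, as in 4 of the 8 factors (Foxa1, Etv5, Klf5 and Grhl2, all with knockouts lower) and 23.7% of all genes. The change of −0.63 ± 0.21 did not pass (adjusted p 0.114; −0.43, adjusted p 0.0565, without knockout 3), but did after median-ratio scaling (−0.50, adjusted p 0.0475) and quantile normalization (−0.46). On the epithelial scale Klf5 (−0.89, adjusted p 0.0163) and Grhl2 (−0.76, adjusted p 0.0240) also passed, which made 4 of the 8 factors lower. Over all genes that scale called 2172 lower, against 536 without it. It also moved the median of all genes there from −0.139 to −0.265. At 6 months Grhl2 was 0.01 ± 0.09 (adjusted p 0.954), and in organoids −0.19 ± 0.11 (adjusted p 0.275).

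In AT2 cells 6.62% of all genes were called higher and 1.22% lower. Of 12 junction genes reported as GRHL2 targets, 2 were higher and 0 lower in AT2 cells (median 0.07, 0.08 over all genes). These were the protease inhibitor gene Spint1 (0.35 ± 0.07) and the claudin gene Cldn4 (1.503 ± 0.32, from 5.19 to 16.8 TPM), calls lost in 10 and 7 of 14 alternatives. At 6 months 15.9% of all genes were called higher and 13.9% lower. Of the 12 targets, Spint1 (0.47 ± 0.06) and its partner protease gene St14 (0.34 ± 0.07) were higher there. Cldn7 was lower (−0.29 ± 0.06), and the median of the 12 was −0.04. None (0) passed by limma in lungs at 6 days (median −0.21, 4 with an unadjusted p under 0.05) or in organoids (median 0.08, 3 with an unadjusted p under 0.05).

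Over all genes, 6.62% were called higher and 1.22% lower in AT2 cells, 3.16% and 3.79% at 6 days, and 15.9% and 13.9% at 6 months. Other transcription factors of the lung epithelium were read beside these shares from a list of 34. In AT2 cells 2 of 31 tested were higher and 0 lower (median −0.05): the forkhead gene Foxp2 (0.56 ± 0.11) and the ETS gene Elf5 (0.63 ± 0.14), calls lost in 8 and 10 of 14 alternatives. At 6 days 2 of 32 were lower and 0 higher (median −0.53, −0.14 over all genes): Tfcp2l1, a grainyhead family gene (−0.89 ± 0.17), and the airway factor Sox2 (−0.80 ± 0.18), calls lost in 5 and 7 of 14 alternatives. At 6 months 10 of 31 were lower and 3 higher (median −0.13), with Sox2 (−0.66 ± 0.09) and the nuclear factor I gene Nfib (−0.40 ± 0.06) lower, and Irx1 (0.75 ± 0.11) and Id2 (0.66 ± 0.10), an inhibitor of helix-loop-helix factors, higher. In organoids Id2 was the 1 of 34 that passed, rising from 269 ± 1.23 to 784 ± 28.3 TPM (1.54 ± 0.10, adjusted p 0.0317, a call lost in 3 of 12 alternatives). This call is in the same organoids in which 0 of the 8 factors passed. Ctse, a gastric protease gene, was the 1 of 4 tested gut and stomach genes that was higher at 6 days, from 0.903 to 3.91 TPM (1.37 ± 0.23, lost in 3 of 13 alternatives), and by limma 0 of 1, 0 of 3 and 0 of 4 passed in AT2 cells, lungs at 6 months and organoids (0, 1 and 3 with an unadjusted p under 0.05). NKX2-1 is known to repress such genes, but Nkx2-1 did not pass at 6 days, and a link to Ctse was not tested.

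**Figure D4:**
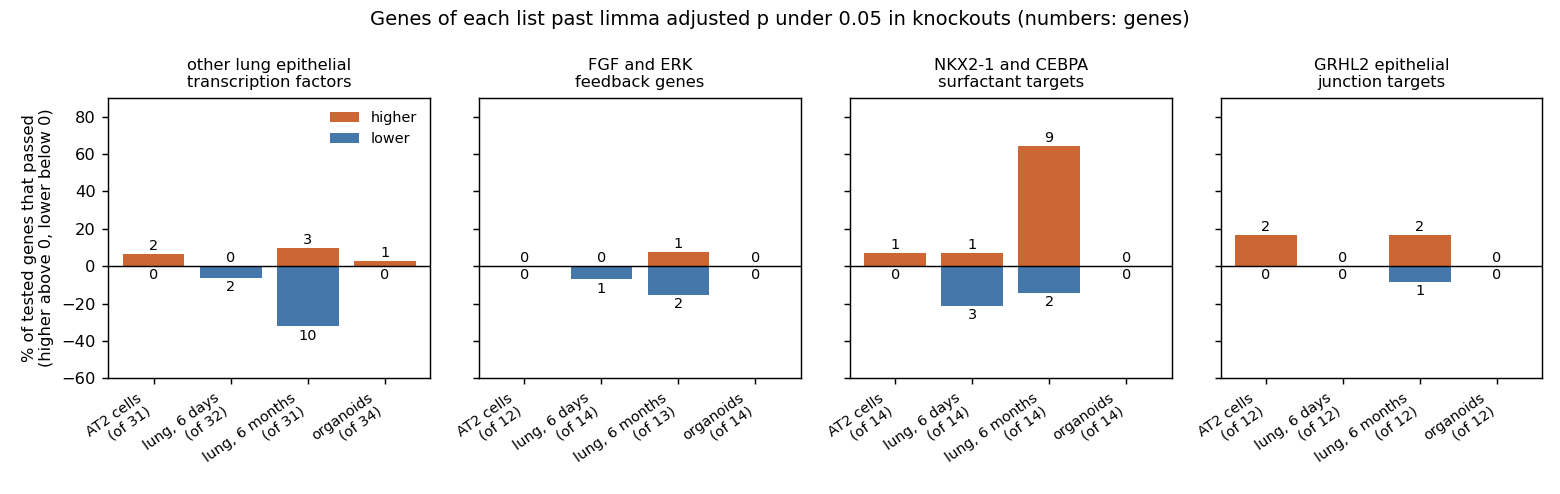
Percent of tested genes of each list that passed an adjusted p of 0.05 in knockouts, with higher plotted above and lower below 0 and the number of genes at each bar, for the 4 kinds of sample. The tallest bar is the 9 of 14 surfactant targets higher in lungs at 6 months, and the deepest is the 10 of 31 other factors lower there.

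The knockout effects of the 2 lung times were compared by a test of the difference itself, with the spread of each table kept separate. Etv5 differed by 1.246 ± 0.19 (6 months minus 6 days, adjusted p 0.00291) and Cebpa by 0.78 ± 0.17 (adjusted p 0.0399), and 2 of the 8 factors passed where 2.73% of 13875 genes did. The Etv5 difference passed in all 23 alternatives run. The Cebpa difference ended after median-ratio scaling (0.62, adjusted p 0.0666), without a variance trend (0.0632), and without 6 libraries in turn: 6-day control 1 (0.228), control 2 (0.0698), control 3 (0.253) and knockout 2 (0.171), and 6-month control 1 (0.0540) and knockout 2 (0.0531). Foxa1 was 0.56 ± 0.20 less negative at 6 months and did not pass (adjusted p 0.207, 95% interval 0.13 to 0.99). The differences of Nkx2-1, Foxa2, Gata6, Klf5 and Grhl2 did not pass either, with 95% intervals that reached up to 1.19 for Klf5. The tamoxifen schedule differed between the lung groups too and cannot be told apart from the time. On the epithelial scale 6 of the 8 differences passed, among 2811 genes that did so, against 379 genes without that scale. The median difference over all genes was 0.389 on that scale and 0.163 without it.

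Between organoids and AT2 cells the effect on Etv5 differed by 1.29 ± 0.27 (organoids minus AT2 cells, adjusted p 0.0360), and 1 of the 8 factors passed where 9.29% of 11351 genes did. It did not pass without the filter (adjusted p 0.0529), on the epithelial scale (0.0602), or without either organoid knockout (0.358 and 0.348). Cebpa differed by 1.38 ± 0.37 (adjusted p 0.0801), Foxa2 by 1.29 ± 0.47 (0.149) and Gata6 by 1.05 ± 0.32 (0.104), which did not pass. Without organoid control 2 all 3 passed, at 0.88 (adjusted p 0.00138), 0.63 (0.0122) and 0.63 (0.0121), where 19.1% of 11425 genes did. Without organoid control 1, 7 of the 8 differences passed (all but that of Grhl2), where 42.5% of 11462 genes did. With a shared spread Cebpa (0.0276) and Gata6 (0.0382) passed as well as Etv5. Foxa1 differed by −0.09 ± 0.29 (95% interval −0.81 to 0.63, adjusted p 0.860). On simulated data this difference test made 40 false calls of 366, and that of the lungs 29 of 297, above the nominal share of 5%. The tests within AT2 cells (20 of 216) and within organoids (14 of 123) also exceeded that share. Those within lungs at 6 days (4 of 128) and at 6 months (10 of 208) did not.

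Within the organoids, the 5 factors with positive values (Nkx2-1, Foxa2, Gata6, Cebpa and Etv5) were each lower in control 2 than in control 1, and the 3 with negative values (Foxa1, Klf5 and Grhl2) were each higher in control 2. Without control 2, 4 factors were called higher (Foxa2 0.46, Gata6 0.49, Cebpa 0.46 and Etv5 0.75) and 0 lower, where 11.7% of 12589 genes were called higher and 13.5% lower. Without control 1, 5 were higher and 2 lower, where 29% of 12897 genes were called higher and 25% lower, each with 1 control left that is assumed to vary like the knockouts. With 2 mice per genotype, 39.6% of all genes had both knockouts above both controls and 32% had both below, so the separation of all 8 factors is close to what most genes showed.

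For each factor the genes whose level varied most alike over the 24 libraries were found among 11077 genes with a mean of at least 5 TPM, by the root mean square difference of centred log2(TPM + 1). These values mix the 4 kinds of sample, which differ far more than the genotypes, and are descriptions. Nkx2-1 was nearest to Hacd3 (0.19) and Slc25a10 (0.20), and Gata6 to Apc (0.14) and Foxp4 (0.17). Foxa1 was nearest to the desmosome gene Dsp (0.21) and the receptor gene Erbb3 (0.27), and Foxa2 to Ttll7 and Aldh7a1 (both 0.24). Cebpa was nearest to the claudin gene Cldn3 (0.24) and Adgrg1 (0.25), and Etv5 to Abca3, the lipid transporter of lamellar bodies (0.24), and Dram1 (0.28). Klf5 was nearest to Grhl2 (0.21) and Fam83g (0.24), and Grhl2 to Fam83g (0.14) and Tmem30b (0.18), so that 1 pair among the 8 factors were neighbours by this measure. The factors themselves varied by 0.57 (Foxa2) to 1.23 (Etv5) on the same scale.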

How the data were processed

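TruSeq libraries of poly(A) RNA, not strand-specific according to the labels' protocols, were made from 24 mouse samples. The authors deposited TPM values, 1 table per kind of sample. GRCm38 is the build in the submitters' processing notes, with aligner, quantifier and gene models each not given in the sources used here. TPM keep no depth, so counting error could not be given.

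Of 24972 rows in a table, 2 repeated a symbol and were left out. limma 3.58.1 (R 4.3.3) was run within each table on log2(TPM + 1), genotype being the single factor, with a variance trend. Tests were two-sided, and p-values were adjusted by Benjamini-Hochberg over every gene tested. Genes entered the test if the number of libraries at 1 TPM or more reached the size of the smaller group. The scale understates changes of low genes. A difference between 2 tables was the difference of their moderated effects over the root of the summed squared errors, with Satterthwaite degrees of freedom.

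Named were the 8 factors, up to 4 genes per list with the smallest adjusted p among those that passed, Sftpc, Epcam, Hopx and Krt8, and the 2 nearest genes of each factor, leaving out predicted genes. The factors, lists and tests were chosen with earlier results of these data known, and lists share genes. One listed marker gene is not reported here. The ratios, the epithelial scale and the forkhead motif were chosen after values were seen. A first simulation, with noise at each gene's own unmoderated spread, recovered none of the changed genes in organoids and gave more false calls in the difference tests, and its noise was replaced, so the recovery given here may be optimistic. On simulated data with noise at the moderated spread, the recovered share of genes that changed by 1 (log2) was 98% in AT2 cells (20 false calls of 216), 62% in lungs at 6 days (4 of 128), 99% at 6 months (10 of 208) and 54.5% in organoids (14 of 123). Promoters were found for 5 factors (8 starts). Tried as alternatives were another pseudocount (0.1), the filter removed or raised to 5 TPM, median-ratio and quantile scaling, the trend removed, a replicate block, each library left out in turn and, for differences, a shared spread.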

Additional observations from a re-analysis of the deposited data

Results flagged for a closer look

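Among the 4 mice per genotype of the lungs at 6 months, 16 groups of values (8 factors, 2 genotypes) were searched for a lone library far from its group, by its gap to the nearest value over the whole range. Chance flags about 1 in 20 groups. For Foxa2, knockout 3 was at 31.5 TPM and the other knockouts at 38.6 to 40.0 TPM, a gap of 0.838 of the range. For Klf5, control 2 was at 21.5 TPM and the other controls at 26.3 to 26.8 TPM, a gap of 0.908 of the range. Neither gene passed in that comparison.

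The knockout effect differed between groups for 2 factors in lungs (6 months minus 6 days: Etv5 1.246, Cebpa 0.78 on the log2 scale) and for Etv5 between organoids and AT2 cells (1.29). Etv5 was lower in the knockouts at 6 days and higher at 6 months. Cebpa was called at 6 months and not at 6 days.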

How the results depend on the processing

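In AT2 cells the 1 factor called lower became 0 without the filter and 2 with the filter at 5 TPM or after median-ratio scaling. In lungs at 6 days the 2 called lower became 4 on the epithelial scale, where the calls over all genes went from 536 to 2172. The 2 lung differences became 1 after median-ratio scaling or without a variance trend. They became 6 on the epithelial scale, where those over all genes went from 379 to 2811. The 1 organoid minus AT2 difference became 0 without the filter or on the epithelial scale and 3 with a shared spread. Leaving out 1 library at a time gave 0 to 2 factors lower in AT2 cells, 0 to 2 lower at 6 days, 1 to 2 lower at 6 months, 0 to 5 higher and 0 to 2 lower in organoids, 1 to 2 lung differences and 0 to 7 organoid differences. The cause was not tested. The counts of 0 higher in AT2 cells and lungs at 6 days and of 2 higher at 6 months were the same in every alternative run.

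The replicate number was fitted as a block. Same-numbered samples did not all correlate above 0.1 in any table, which cannot settle whether they were paired. Their correlations ranged from −0.173 to 0.172 (AT2 cells), −0.154 to 0.00534 (6-day lungs) and 0.0803 to 0.217 (6-month lungs), and were −0.0737 for organoids. Every 6-month control correlated best with the knockout of its own number, a hint from the data and not the design. With the block, 1 factor was lower at 6 days (Etv5 lost, adjusted p 0.0708), 2 were lower at 6 months (Foxa2 gained, adjusted p 0.0197) and 1 lung difference passed (Cebpa lost, adjusted p 0.0938). In organoids the block called 122 genes higher and 277 lower over all genes, against 27 and 48.

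Of 1565 values recomputed, 30 changed sign, none of them with an adjusted p under 0.05 (the smallest was 0.231). Median-ratio scaling gave −0.0621 for Grhl2 and −0.0610 for Epcam in AT2 cells, 0.0727 for Hopx at 6 days, −0.0543 for Krt8 in organoids and −0.0780 for the lung difference of Foxa2. Quantile normalization gave −0.0571 for Grhl2 and −0.0510 for Epcam in AT2 cells, −0.0372 for Nkx2-1 and −0.00821 for Grhl2 at 6 months, and −0.0761 for the lung difference of Foxa2. On the epithelial scale Grhl2 was −0.102 and Epcam −0.102 in AT2 cells, Epcam 0.0187 at 6 months and Krt8 −0.153 in organoids. With 1 library left out, values in AT2 cells ran from −0.228 to 0.0820 (Klf5), −0.0473 to 0.106 (Grhl2) and −0.0249 to 0.0990 (Epcam), in lungs from −0.173 to 0.0291 (Hopx, 6 days) and −0.0263 to 0.0491 (Grhl2, 6 months), and in organoids from −0.0375 to 0.0511 (Krt8). The lung differences ran from −0.110 to 0.209 (Foxa2) and −0.124 to 0.440 (Gata6), and the organoid difference of Foxa1 from −0.460 to 0.275. Depth is unknown, and group sizes of 2 to 4 limit the precision.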
